A study of Mus musculus with 2 samples.

Results

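The genes of complex II, complex III and the ATP synthase were taken as the protein-coding nuclear genes whose symbols begin with the names of their subunits, assembly factors and the ATP synthase inhibitor (Sdha to Sdhd, Sdhaf, Uqcr, Uqcc, Cyc1, Bcs1l, Atp5, Atpaf and Atpif1). The rule found 41 genes among 21000 protein-coding genes of the mm10 mouse genome by symbol alone, although these complexes were picked for description with earlier results of these data known. A peak of NRF1 lay in the promoter of 22 of them, or 53.7% (Wilson 95% interval 38.7 to 67.9%), compared with 13.4% of all protein-coding genes. The other 19 genes had none. A promoter here spans 1000 bp before to 100 bp after a transcription start of a known RefSeq transcript, and a peak belongs to it when its summit lies inside.

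NRF1 was profiled by chromatin immunoprecipitation and sequencing (ChIP-seq), in which DNA fragments bound by a protein are recovered with an antibody against it, in skeletal muscle of wild-type mice. The study asked whether DNA bound by the glucocorticoid receptor and its coregulator LSD1 also carries NRF1. Both libraries of the series are labelled with the NRF1 antibody, the same tissue and the same genotype, without treatment, age or strain in the labels, and the nuclei came from whole muscle and so from every cell type it holds. In the reporting summary of the study, however, the second of these libraries is listed as input DNA. A single list of 3226 peaks was available, and all peak names hold the title of replicate 1 alone, so no value below has a replicate error and no difference between conditions was tested. The tissue could not be checked against marker genes, since a peak list holds no expression. The list gives no read depth, and a site under the calling threshold cannot be told apart from an unoccupied one.

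Complex II (succinate dehydrogenase) passes electrons from succinate to coenzyme Q, complex III (the cytochrome bc1 complex) hands them on to cytochrome c while pumping protons, and the ATP synthase uses the returning protons to make ATP, the main fuel of contracting muscle. NRF1, nuclear respiratory factor 1, is named after its sites in nuclear genes of this pathway and binds as a dimer to a GC-rich palindrome. Complex II is the complex of the chain whose subunits are all encoded in the nucleus, whereas complex III and the ATP synthase each also contain mitochondrially encoded subunits, which are not among the genes described here.

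The sites themselves are shown first. The palindrome GCGCATGCGC, with at most 1 mismatch, was in the promoter of 19 of 22 members with a peak and 0 of 19 without. All protein-coding genes showed the same kind of split, at 68.4% with a peak and 3.44% without. The palindrome is the commonest at these same summits, so the split only describes the peaks and is no separate support. That palindrome was the most frequent 10-base palindrome within 50 bp of the summits, at 305 peaks, and the next one was found at 62. A copy was counted with at most 1 mismatch, and since the letters read the same on both strands a single search covers both. In the sequences given here, from the RefSeq GRCm38 (mm10) assembly and on the strand of the gene, capitals mark the copy and lower case the 10 bases on each side. Substitutions are counted from 1 at the 5′ end of the copy and give first the base of the palindrome and then that of the site. At complex II genes the copies in the strongest promoter peak were the following, with Sdha carrying 3 of them.
Sdha, chr13:74350319-74350348: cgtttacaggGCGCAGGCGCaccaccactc
Sdha, chr13:74350276-74350305: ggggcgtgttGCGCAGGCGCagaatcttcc
Sdha, chr13:74350231-74350260: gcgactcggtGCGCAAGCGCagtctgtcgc
Sdhb, chr4:140961205-140961234: gaagcccagtGGGCATGCGCcctacgggcc
Sdhd, chr9:50603909-50603938: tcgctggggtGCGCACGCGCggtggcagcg
Sdhaf3, chr6:6956001-6956030: cccaccttctGCGCAGGCGCggcgcgatgc
Sdhaf4, chr1:24005613-24005642: ccaccttggtGCGCGTGCGCagacgctgtg

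None of the complex II copies was the exact palindrome. Sdha, Sdhaf3, Sdhaf4 and Sdhd differed from it at its central bases, with T6G or T6A at Sdha, T6G at Sdhaf3, A5G at Sdhaf4 and T6C at Sdhd. Sdhb was the exception, with C2G near the 5′ end. At complex III genes the exact palindrome was present at Uqcrc1, next to a second copy with A5T. Uqcr11 had G1A and Uqcc2 had T6C.
Uqcrc1, chr9:108936643-108936672: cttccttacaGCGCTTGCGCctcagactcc
Uqcrc1, chr9:108936668-108936697: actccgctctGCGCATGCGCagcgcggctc
Uqcr11, chr10:80406808-80406837: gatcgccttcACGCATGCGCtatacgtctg
Uqcc2, chr17:27133920-27133949: gcgccttagtGCGCACGCGCcctctgcggt

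The ATP synthase genes held the exact palindrome at Atp5g2 and Atp5k in their strongest peak, and at Atp5j in a weaker second peak. Their other copies differed at the central bases (Atp5c1, Atp5g3, Atp5h, Atp5mpl, Atp5o, Atpif1 and Atpaf2) or, at Atp5l, by G1A, the substitution also found at Uqcr11.
Atp5c1, chr2:10080430-10080459: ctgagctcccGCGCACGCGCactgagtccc
Atp5g2, chr15:102671070-102671099: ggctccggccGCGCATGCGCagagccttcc
Atp5g3, chr2:73911295-73911324: gagccgcaccGCGCTTGCGCgcccagcccc
Atp5h, chr11:115420041-115420070: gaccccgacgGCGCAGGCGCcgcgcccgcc
Atp5j, chr16:84836303-84836332: cttataaggtGCGCATGCGCacttgtggag
Atp5o, chr16:91931602-91931631: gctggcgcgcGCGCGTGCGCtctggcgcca
Atp5k, chr5:108434430-108434459: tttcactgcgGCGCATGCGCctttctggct
Atp5l, chr9:44920965-44920994: aaaaccaataACGCATGCGCatttccccca
Atp5mpl, chr12:111967052-111967081: gcgctgtggtGCGCAGGCGCggaaggccgg
Atpif1, chr4:132535536-132535565: tgaccgttctGCGCAAGCGCagcctcacgt
Atpaf2, chr11:60417545-60417574: ggacccgggcGCGCACGCGCgggggagggg

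Peaks were unevenly spread over the parts of these complexes. Of the 8 complex II genes 5 had a promoter peak (62.5%), of the 13 complex III genes 5 (38.5%), and of the 20 ATP synthase genes 12 (60.0%). All 3 shares were above the 13.4% of all genes, and the groups are too small for the difference between complex III and the others to be read as more than these counts. Genes with a CpG-rich start, defined as a GC content of at least 55% and a CpG observed-to-expected ratio of at least 0.65 within 200 bp of the start, have a promoter peak more often in any case. In that class 17 of 29 members had a peak (58.6%), against 24.3% of the 10383 protein-coding genes with such a start.

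**Figure D1:**
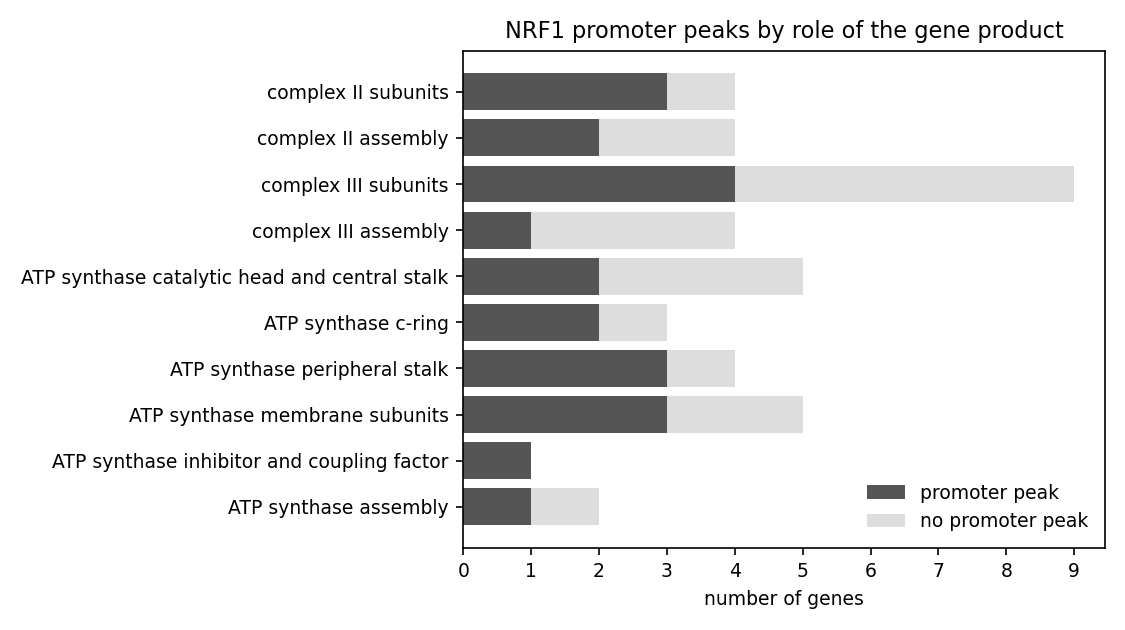
Number of genes (horizontal axis) of complex II, complex III and the ATP synthase by the role of their product, with dark bars for genes with an NRF1 promoter peak and light bars for genes without. The subunits of complex II had a peak at 3 of 4 genes, those of complex III at 4 of 9, and the peripheral stalk of the ATP synthase at 3 of 4.

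Among the catalytic subunits of complex II, NRF1 occupied the start of Sdha, which encodes the flavoprotein that oxidizes succinate, and of Sdhb, which encodes the iron-sulphur subunit. The Sdhb peak (chr4:140961081-140961346) had a fold enrichment of 19.3, that is, the signal at the summit was 19.3 times the control background of the peak caller. Its −log10 q was 48.0, where a larger value means stronger evidence, and its summit lay 57 bp before the start. The Sdha peak (chr13:74349977-74350501) was lower in fold enrichment, at 15.0, but had the higher −log10 q of 56.6. At 525 bp it was also the widest of the 22 strongest peaks, whose median width was 305.5 bp, and it spans the 3 copies of the motif printed above.

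The membrane anchors of complex II differed. Sdhd had a peak (chr9:50603772-50604132) with a fold enrichment of 16.0, whereas Sdhc had none, and the summit nearest to its start was 105854 bp away. Of the assembly factors, Sdhaf4, whose product binds the flavinylated Sdha protein, had a peak (chr1:24005455-24005827) with a fold enrichment of 12.3 and its summit 13 bp after the start. Sdhaf3, which helps to insert iron-sulphur clusters into the Sdhb protein, had the lowest fold enrichment of all members (chr6:6955888-6956148), at 4.72, with a −log10 q of 5.90. Only 2.8% of promoter peaks had a lower fold enrichment. Sdhaf1, another factor for iron-sulphur insertion, and Sdhaf2, which is needed to attach the flavin, had no promoter peak.

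Complex III held the strongest peak of the whole set. It lay at Uqcrc1 (chr9:108936538-108936896), which encodes a core protein on the matrix side of the complex, with a fold enrichment of 23.0 and a −log10 q of 61.7. The summit was 19 bp downstream of the start, and 92.0% of promoter peaks had a lower fold enrichment. The gene of the partner core protein, Uqcrc2, had no promoter peak, and the nearest summit was 1497809 bp away. Neither of the nuclear genes for electron-carrying subunits, Cyc1 (cytochrome c1) and Uqcrfs1 (the Rieske iron-sulphur protein), had a promoter peak.

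The small subunits of complex III divided as well. Uqcr11 (chr10:80406734-80406945) had a fold enrichment of 12.5 with its summit 2 bp after the start, close to the median strength of NRF1 promoter peaks. The peaks of Uqcrb (chr13:66905272-66905497) and Uqcr10 (chr11:4704153-4704640) were lower, at 8.62 and 6.54. Uqcrh, the hinge protein, and Uqcrq had none. Among assembly factors the promoter peak was that of Uqcc2, which takes part in the maturation of cytochrome b. It (chr17:27133577-27134095) was the third strongest of the set, with a fold enrichment of 18.6, and Uqcc1, Uqcc3 and Bcs1l had no promoter peak, although a peak lay just past the promoter limit of Uqcc1, as described further on.

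In the catalytic head and central stalk of the ATP synthase, no promoter peak was called at the genes of the catalytic ring, Atp5a1 (alpha) and Atp5b (beta). The genes of the central stalk had one at Atp5d (delta) and Atp5c1 (gamma) and none at Atp5e (epsilon). The Atp5d peak (chr10:80142121-80142427) reached a fold enrichment of 14.1 with its summit 15 bp after the start. A second, weaker Atp5d peak (chr10:80141354-80141528) lay at -838 bp, where negative values are before the start, with a fold enrichment of 5.22. At Atp5c1 (chr2:10080217-10080559) the fold enrichment was 8.78.

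The peripheral stalk, which keeps the catalytic head from rotating, had a peak at 3 of its 4 genes. Atp5j (coupling factor 6) was highest at 11.7 (chr16:84835024-84835356), Atp5h (subunit d) had 10.7 (chr11:115419907-115420184) and Atp5o (the oligomycin sensitivity conferring protein) 9.10 (chr16:91931541-91931726). These 3 values lay close together and near the middle of all promoter peaks. Atp5pb (subunit b) was the stalk gene without a peak. At Atp5j a second peak (chr16:84836196-84836383) with a fold enrichment of 8.02 lay at -662 bp from the nearest of the gene's 5 starts, and it was this weaker peak that held the exact palindrome.

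The small membrane subunits had the lowest median fold enrichment of the roles with more than 1 bound gene, at 7.68. Atp5k (subunit e) had 7.97 (chr5:108434357-108434558), Atp5mpl (a small proteolipid) had 7.68 (chr12:111966873-111967176) and Atp5l (subunit g) had 5.70 (chr9:44920813-44921081). Atp5k was at this modest level although its site is the exact palindrome. Atp5j2 (subunit f) and Atp5md had no promoter peak.

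Atpif1, whose protein blocks the ATP synthase from running in reverse, had the highest fold enrichment of the ATP synthase genes (chr4:132535420-132535708), at 15.8, with a −log10 q of 36.1, which Atp5g2 exceeded with 37.3. This assignment rests on the annotation, because the RefSeq start of Atpif1 lies 1755 bp upstream of the first start in GENCODE, and the peak is shared with the promoter of Dnajc8. Of the chaperones that assemble the catalytic head, Atpaf2 had a weak peak (chr11:60417395-60417644) with a fold enrichment of 5.08 and the lowest −log10 q of the members, 4.95, and it lay 487 bp before its start and in an exon of the neighbouring gene Gid4. Atpaf1 had no promoter peak.

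**Figure D2:**
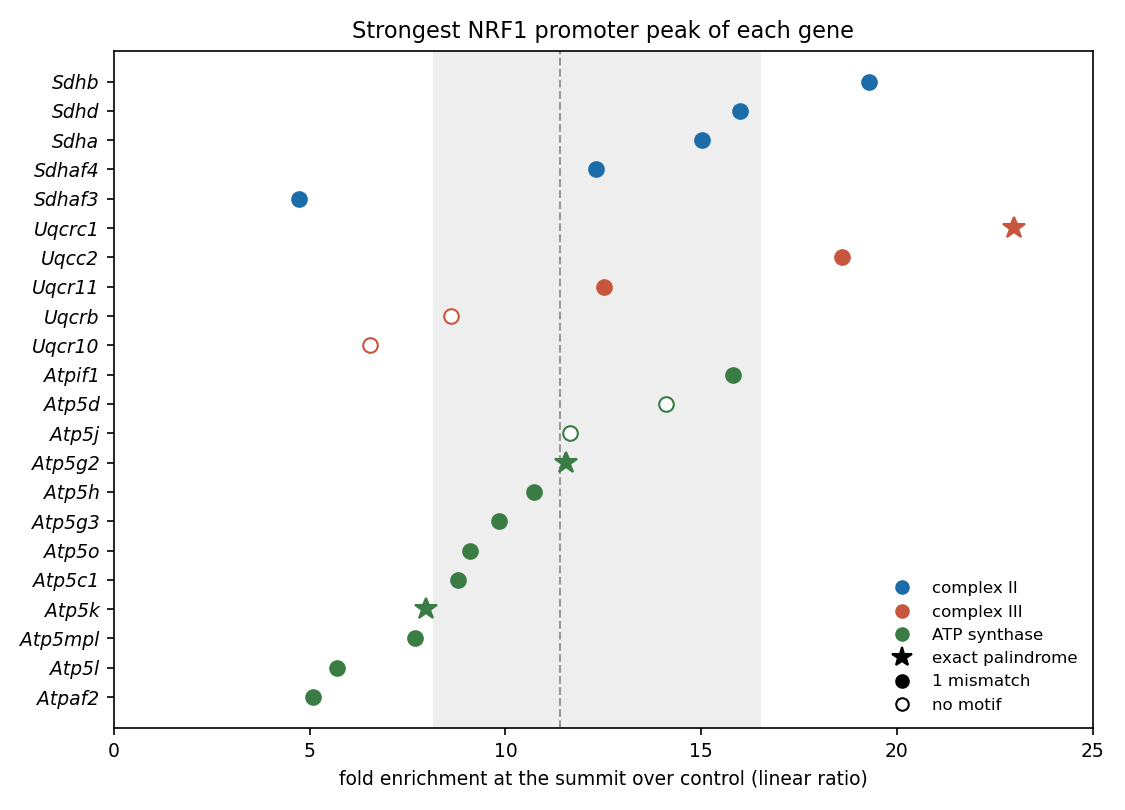
Fold enrichment over control (horizontal axis, linear ratio) of the strongest NRF1 promoter peak of each of the 22 bound genes, ordered within each complex, without error bars because there is 1 peak list. The dashed line is the median (11.4) and the band the quartiles (8.18 and 16.5) over all protein-coding genes with a promoter peak, and 3 genes (Uqcrc1, Sdhb and Uqcc2) lie beyond the upper quartile.

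Although these genes had a promoter peak more often than other genes, the peaks were of ordinary height. The strongest peaks of the 22 members had a median fold enrichment of 11.1 (quartiles 8.13 and 14.8, range 4.72 to 23.0), and those of all protein-coding genes with a promoter peak had a median of 11.4 (quartiles 8.18 and 16.5). Above that median there were 11 members, and 11 were at or below it. Beyond the upper quartile there were 3 members, and under the lower quartile 6. By complex the median was 15.0 for complex II, 12.5 for complex III and 9.46 for the ATP synthase, on 5, 5 and 12 genes.

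The c-ring of the ATP synthase allows a closer comparison, because Atp5g1, Atp5g2 and Atp5g3 encode the same mature subunit c from separate loci. NRF1 occupied Atp5g2 (chr15:102670882-102671259, fold enrichment 11.5, −log10 q 37.3) and Atp5g3 (chr2:73911117-73911437, fold enrichment 9.82, −log10 q 20.5), and Atp5g1 had no promoter peak. The nearest summit to Atp5g1 was 362951 bp from its start. Atp5g1 had no copy of the motif within its promoter, with at least 3 mismatches at its best match, whereas Atp5g2 had 3 copies over the whole promoter and Atp5g3 had 1. The 150 bases before the start of each gene are printed on its strand to show where the paralogs part, with the motif copy in capitals. The Atp5g3 copy lies 16.5 bp after the start, in the exon, and so is not in its stretch.
Atp5g1, chr11:96075695-96075844: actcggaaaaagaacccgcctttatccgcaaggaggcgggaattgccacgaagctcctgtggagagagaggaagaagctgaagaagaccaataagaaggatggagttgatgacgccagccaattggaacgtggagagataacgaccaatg
Atp5g2, chr15:102671048-102671197: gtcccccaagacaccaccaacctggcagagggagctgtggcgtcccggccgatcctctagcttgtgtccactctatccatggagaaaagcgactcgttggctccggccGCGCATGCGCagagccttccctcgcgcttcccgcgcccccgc
Atp5g3, chr2:73911327-73911476: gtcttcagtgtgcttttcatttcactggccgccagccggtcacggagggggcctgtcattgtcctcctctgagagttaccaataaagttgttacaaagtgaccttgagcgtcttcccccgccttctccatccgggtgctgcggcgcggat

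NRF1 sat close to the starts of these genes. The summit of the strongest peak was within 50 bp of a start at 12 of 22 members, compared with 42.3% of all genes with a promoter peak. It was within 100 bp at 17 members (67.3% of all genes) and within 200 bp at 21 (85.2%), and Atpaf2 was the member farther out. The median offset was -42.5 bp (quartiles -82.5 and -2.75), and over all genes it was -59.0 bp (quartiles -132.0 and -12.0). The promoter window reaches 1000 bp before a start but only 100 bp after it. Relative to the nearest annotated start, summits lay before it at 16 members and after it at 6 (Atp5d, Atp5g3, Atp5o, Sdhaf4, Uqcr11 and Uqcrc1). At Atp5c1 and Atp5j, which have 2 and 5 annotated starts, the summit lay before the nearest start but after the first one. By annotation 12 of the summits were upstream of the start and in no exon, and 10 were in an exon outside the coding sequence, with that exon belonging to a neighbouring gene at Atp5j (Gabpa), Sdhd (Timm8b) and Atpaf2 (Gid4).

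**Figure D3:**
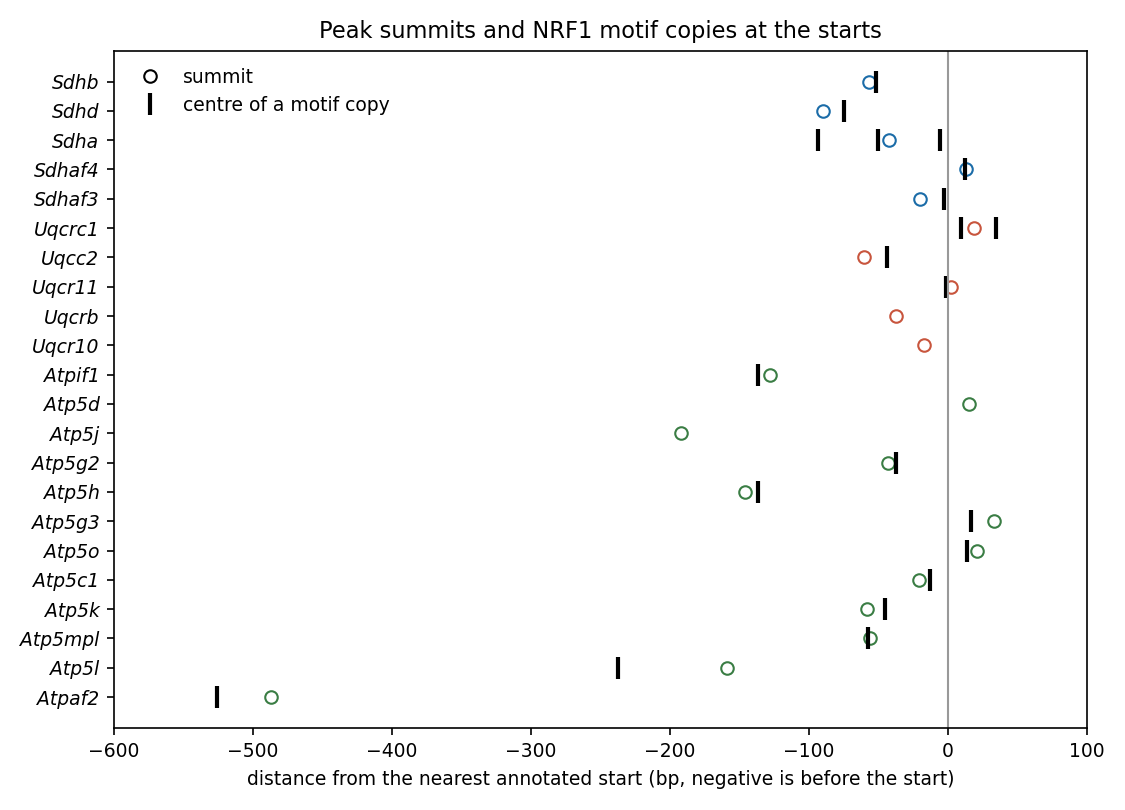
Position of the strongest peak's summit (circles) and of the centre of each motif copy within 100 bp of it (bars), in bp from the nearest annotated start, for the 22 bound genes of complex II (blue), complex III (red) and the ATP synthase (green). In 16 rows the nearest copy is within 25 bp of the summit, and 4 rows (Uqcrb, Uqcr10, Atp5d and Atp5j) have no bar, since the Atp5j copy at -692.5 bp belongs to its weaker second peak and is not drawn.

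A motif copy within 100 bp of the summit was present in 18 of the 22 strongest peaks, or 81.8% (Wilson 95% interval 61.5 to 92.7%), and in 66.4% of the strongest promoter peaks of all protein-coding genes with one. The interval includes the share over all genes. The summit and its nearest copy were a median of 9.0 bp apart, and in 16 of the 18 peaks they were within 25 bp. The farthest was at Atp5l, with 78.5 bp. Relative to the start nearest the summit, copies were before it at 14 genes and after it at 4. The Atp5c1 copy, counted as before, lies after the first start of that gene. The exact palindrome was in 3 of the 22 peaks (Uqcrc1, Atp5g2 and Atp5k), against 11.1% of all genes with a promoter peak. More than 1 copy was found at 2 members, Sdha and Uqcrc1, against 12.3% of genes.

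The commonest form of the site, read on either strand, was GCGCACGCGC, with 6 copies at Atp5c1, Atp5o, Atpaf2, Sdhaf4, Sdhd and Uqcc2, and 16.5% of all promoter peaks held it. GCGCAGGCGC followed with 5 copies at Atp5h, Atp5mpl, Sdha and Sdhaf3, and it was present at 23.6% of all promoter peaks. GCGCAAGCGC, which only 5.17% of promoter peaks held, made up 4 copies at Atp5g3, Atpif1, Sdha and Uqcrc1. These 3 forms differ from the palindrome at a central base only, and together they outnumbered the exact palindrome with its 4 copies. The form at Sdhb, GCGCATGCCC, was in 1.45% of promoter peaks.

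At Atp5d, Atp5j, Uqcr10 and Uqcrb the strongest peak held no copy with at most 1 mismatch, but each had a near match with 2 mismatches within 100 bp of the summit. They are printed so that the near matches can be set beside the sites above, again on the gene's strand with the match in capitals. The substitutions were A5G and C10T at Atp5d, G1A and C10T at Atp5j, G1A and T6A at Uqcr10, and A5C and G9C at Uqcrb. The Atp5d match was 6.5 bp from the summit and the Atp5j match 94.5 bp. A match at this level is common, since 91.1% of all genes with a promoter peak had one in their strongest peak.
Atp5d, chr10:80142322-80142351: agaatcctgtGCGCGTGCGTtcttgtggga
Atp5j, chr16:84835105-84835134: aggccagaatACGCATGCGTacagtgcagt
Uqcr10, chr11:4704325-4704354: attgggttctACGCAAGCGCagtggcgcga
Uqcrb, chr13:66905400-66905429: ggtcagagcaGCGCCTGCCCctcccttccc

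The peaks without a copy were not uniformly weak. Atp5d (14.1) and Atp5j (11.7) were above the median of all genes with a promoter peak, and Uqcrb (8.62) and Uqcr10 (6.54) below it. The median fold enrichment was 11.1 with a copy and 10.1 without, on 18 and 4 members. Over all genes with a promoter peak the corresponding medians were 13.2 and 8.77.

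Peaks at 8 of the 22 members (36.4%) also lay in the promoter of another gene, compared with 26.1% of all genes with a promoter peak. In all 8 the other gene was on the opposite strand. The partners were Timm8b for Sdhd (52 bp between the starts), Gm10767 for Uqcrb (65 bp), Ccdc127 for Sdha (77 bp), Gabpa for Atp5j (102 bp), Dnajc8 for Atpif1 (145 bp), Kin for Atp5c1 (180 bp), Kctd2 for Atp5h (207 bp) and Zmat5 for Uqcr10 (312 bp). Timm8b encodes a chaperone of mitochondrial protein import, and Gabpa encodes the DNA-binding subunit of GABP, an ETS factor also called nuclear respiratory factor 2. At these 8 promoters the list cannot assign the peak to either gene.

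Of the 19 members without a promoter peak, none had a copy of the motif with at most 1 mismatch anywhere in the promoter, while 19 of the 22 members with a peak did. Among all protein-coding genes the motif was in the promoter of 68.4% of genes with a peak and 3.44% of genes without. Read the other way, all 19 members with the motif in the promoter had a peak, compared with 75.4% of the 2544 protein-coding genes with it. The exceptions among bound members were Atp5d, Uqcr10 and Uqcrb. In 6 of the unbound members (Atp5j2, Atp5md, Atp5pb, Atpaf1, Bcs1l and Uqcc3) the best match had 2 mismatches, and in the other 13 it had more. That a promoter lacks a copy says only that these letters are not in the window.

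Uqcc1, which like Uqcc2 takes part in cytochrome b maturation, was the one member without a promoter peak that had a summit within 5000 bp of its start. That peak (chr2:155930128-155930279) had a fold enrichment of 6.59 and a −log10 q of 7.02, and its summit lay 140 bp after the start, in an exon of Uqcc1 outside the coding sequence. It therefore lay outside the promoter, which ends 100 bp after a start, and it held no copy of the motif. For the other 18 genes the nearest summit was at least 9042 bp away, at Atp5e, and the median over all 19 was 54126 bp.

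The GC content and CpG ratio of bound and unbound members overlapped widely. A CpG-rich start was present at 17 of 22 members with a peak (77.3%) and 12 of 19 without (63.2%). The shares over all protein-coding genes were 89.8% and 43.2%, and the difference was not tested. For a gene with several starts, the highest GC content and the highest CpG ratio over its starts were taken, each on its own. The GC content within 200 bp of the start had a median of 61.2% (range 45.1 to 76.8%) for members with a peak and 60.3% (50.4 to 72.8%) for those without. The CpG ratio had medians of 0.85 and 0.801, and the ranges overlapped. Over all protein-coding genes the medians were further apart, with a GC content of 66.3% for genes with a promoter peak and 58.6% without, and a CpG ratio of 0.898 and 0.6. Bound members were thus less GC-rich by median than bound genes at large, and Atpif1 (45.1%), Uqcr10 (49.9%) and Uqcrb (50.9%) had the lowest GC content among them.

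**Figure D4:**
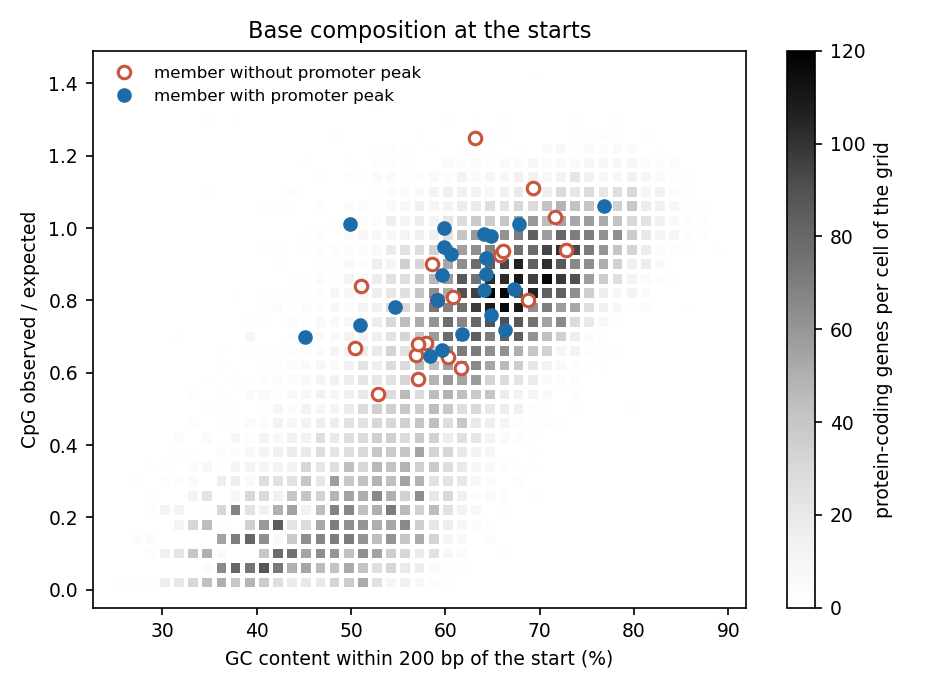
GC content (horizontal axis, %) and CpG observed-to-expected ratio (vertical axis) within 200 bp of the start for members with a promoter peak (filled blue) and without (open red), over all 21000 protein-coding genes (grey squares, darker where more genes fall). Each value is the highest over the starts of the gene. Members of both kinds share the same area, with median GC contents of 61.2% and 60.3%.

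The rest of the respiratory chain was counted in the same way, from lists of subunits and factors. Of 38 genes listed as complex I subunits 15 had a promoter peak (39.5%, median fold enrichment 13.7). Of 18 nuclear genes listed as complex IV subunits 4 did (22.2%, Cox5b, Cox6a1, Cox6c and Cox7a2l). The 2 cytochrome c genes, which link complex III to complex IV, had a peak at Cycs, the somatic form, with a fold enrichment of 18.8, and none at Cyct, the testis form. Of 13 genes of coenzyme Q synthesis 3 had one (Coq2, Coq3 and Coq8a). Among 6 further factors of complex III and the ATP synthase that the symbol rule leaves out, Ttc19, a complex III factor, and Tmem70, an ATP synthase assembly factor, had a peak. The 53.7% of the genes described here pools subunits with assembly factors, whereas the complex I and complex IV lists were made for subunits. Ndufa4 and Ndufa4l2 were counted under complex I and Cox7a2l under complex IV. Among subunits alone a peak was present at 3 of 4 genes of complex II and 4 of 9 of complex III (44.4%). In the ATP synthase it was present at 2 of 5 genes of the catalytic head and central stalk and 2 of 3 of the c-ring. The peripheral stalk had it at 3 of 4 genes and the membrane subunits at 3 of 5. The differences from complex I and complex IV were not tested.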

How the data were processed

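The labels describe 2 NRF1 ChIP-seq libraries of wild-type mouse skeletal muscle. Per the study's methods and processing notes, the authors mapped single-end 50 bp reads to mm10 with Bowtie 1.1.2, kept unique reads, removed blacklisted reads (the blacklist named belongs to a human build) and called peaks with MACS2 2.2.7.1 against input DNA. The methods mention the broad option, but the peaks were deposited in narrow format with summits, and any pooling of libraries is not given in the sources used here. The deposited fold enrichment is a linear ratio to the control, the deposited q-value is on the −log10 scale, as is a p-value that was not used, the deposited score is a rescaled q-value and was not used, and peak position and summit were deposited as other values, in bp. The number of peaks in the deposited list is not the one the study states. Duplicate removal, named in the peak names, limits the height of strong peaks, and unique mapping lowers signal in repeats.

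Peaks were joined to starts of known RefSeq transcripts (GRCm38) with Python 3.11.15, pandas 2.3.3, numpy 2.4.6 and pysam 0.24.0, Wilson intervals came from statsmodels 0.14.6 and cover counting error only, and figures from matplotlib 3.10.9. Scripts were tested on simulated data. Members and lists were chosen with earlier results of these data known. All members were named, and a nearest summit was required only within 5000 bp or beside a motif, so the other distances printed were chosen after their values were seen. No test of a difference was made. Alternatives concerned the promoter window, overlap, q, fold, transcripts and motif. The CpG-rich background, the GENCODE M21 starts and the alternatives for motifs in whole promoters were chosen after seeing the data. No protein sequences were used here.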

Additional observations from a re-analysis of the deposited data

How the results depend on the processing

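Of 19 alternatives over 4 results, 16 kept the count of bound members or the median within 1.5 times that reported, or the share within its Wilson interval, and 3 did not. The number of members with a promoter peak ranged from 21 to 23 over other windows, overlaps, thresholds and annotations. Uqcc1 was gained with 500 bp before and after a start, with 2000 bp before and 500 bp after, with any overlap of at least 1 bp, with predicted transcripts added and with GENCODE M21 starts, which also lost Atpif1. Atpaf2 was lost at a q of at most 1e-05 and Sdhaf3 at a fold enrichment of at least 5. Among the 29 members with a CpG-rich start it was 17, which is a subset of the 41 members although it was counted among the 16. The tolerance of 1.5 times is wide beside the range of 21 to 23, so the 16 is weak evidence of stability. The median fold enrichment ranged from 10.7 to 11.5. The motif results depend on the mismatches allowed, by construction. With none, 13.6% of the strongest member peaks (3) held the motif, against 11.1% of all genes with a peak, and 4 members with a peak and 0 without had it in the promoter, against 11.7% and 0.214% of all genes with and without a peak. With at most 2 mismatches it was 100% of peaks (22), against 91.1%. In whole promoters that setting found a match in 22 members with a peak but also in 6 without, against 94.5% and 28.3% of all genes. Within 50 bp of the summit it was 77.3%, against 59.5%.

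Leaving out a replicate was not possible with 1 peak list. No paired analysis was possible because the list gives no values per library. The unknown depth limits every count of genes without a peak.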

Other observations

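Letters of other factors of respiratory genes were searched on both strands in the 300 bases from 250 before each start. CCGGAAG, the core of ETS sites such as those of GABP, was in 8 of 22 members with an NRF1 promoter peak and in 7 of 19 without (36.4% and 36.8%), against 24.1% of all protein-coding genes with a peak and 11.5% of those without. CCGGAAG was thus about as frequent in members of both kinds. The NRF1 motif was in 17 of 22 and 0 of 19 of these windows (58.8% and 2.06% of all genes with and without a peak). The motifs cannot be compared directly, since members were grouped by NRF1 peaks. The NRF1 motif was also allowed 1 mismatch, whereas CCGGAAG had to match exactly. Unbound members with CCGGAAG included Uqcrh, Uqcrq, Bcs1l, Sdhaf1, Sdhaf2, Atp5e and Atp5md. AAGATGGC, the core of YY1 sites, was in 3 of 22 and 3 of 19, against 6.46% of all genes with a peak and 3.14% without. GGGGCGGG, an SP1 box, was in 7 of 22 and 7 of 19 (31.8% and 36.8%), against 39.7% of all genes with a peak and 24.1% without. TCAAGGTCA, the site of estrogen-related receptors, was rare overall (0.321% of all genes with a peak and 0.434% without) and was found at Atp5g3 and Sdhd, both with an NRF1 peak. The motifs did not overlap one another in the members. A match is a description of the letters and not evidence of binding, and no difference was tested.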
